A study of Papio hamadryas with 72 samples.

Results

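The genes described here are SDCBP, PELI1, TTC14, CANX, MOB1A, HERC4 and NFE2L2, a set of 7 that was chosen by its rise from chow to the HFCS diet in skeletal muscle of control baboons. They were found by gene symbol in the probe annotation and are set against the 8052 genes measured in muscle, 8685 in liver and 9277 in adipose tissue. All 7 had at least 1 detected probe in each of the 3 tissues. Because the control muscle arrays selected them, their values in that muscle are a description and carry no test, and the same holds for any comparison that uses those arrays. The tests given below are for muscle of the other offspring group, liver and adipose tissue.

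The animals were 12 juvenile baboons of about 4.5 years, 3 females and 3 males in each group. Mothers of the CON group ate freely, and mothers of the MUN group (maternal under-nutrition) were fed a restricted ration through pregnancy and lactation. All offspring ate chow after weaning, and needle biopsies of liver, skeletal muscle (vastus lateralis) and omental adipose tissue were taken on chow and again after 7 weeks of a high-fat, high-sugar diet with a fructose drink (HFCS). Each biopsy was hybridized to 1 human Illumina BeadChip, which gave 72 arrays, 6 per tissue, maternal group and diet. The chow biopsy always came first, so the effects of diet, of time and of an earlier biopsy cannot be told apart, and in bulk tissue fewer cells of a type and less RNA per cell cannot be told apart.

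The 7 genes have separate roles. SDCBP encodes syntenin, a scaffold protein that binds the tails of syndecans and takes part in the formation of exosomes. PELI1 and HERC4 encode E3 ubiquitin ligases, PELI1 acting downstream of Toll-like and interleukin receptors. CANX encodes calnexin, a chaperone of the endoplasmic reticulum that holds newly made glycoproteins until they fold. MOB1A encodes an activator of the LATS kinases in the Hippo growth pathway, and NFE2L2 encodes NRF2, the transcription factor that switches on antioxidant and detoxification genes when its inhibitor KEAP1 releases it. TTC14 encodes a protein with tetratricopeptide repeats.

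Between 3179 and 14438 of the 47231 probes were detected per array, and 4 arrays stood apart from their tissue. An array was called weak where its median correlation with the other arrays of its tissue was under 0.9. In muscle this was the chow array of CON replicate 5 (animal 28473), with a median correlation of -0.01 and the 3179 detected probes, against correlations of 0.92 to 0.97 for the other 23 muscle arrays. In liver it was MUN replicate 4 on both diets and MUN replicate 6 on chow. ACTA1, the actin of skeletal muscle fibers, was at 7.09 (log2 signal) on the weak muscle array and between 12.33 and 13.48 on the others, and DES, the desmin gene, was at 7.26 against 10.00 to 11.45. CKM, the creatine kinase of muscle, was at 13.68 on that array against 14.08 to 14.52, so the muscle markers on it differed among themselves. The chow array of CON replicate 1 carried ALB, the albumin gene of hepatocytes, at 14.32 against 6.87 to 7.54 on the remaining muscle arrays other than the weak one, where it was 10.78. Results are given with and without the weak arrays.

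In CON muscle every one of the 7 genes, read with its brightest detected probe, was higher on HFCS than on chow in all 6 animals. SDCBP rose from a median of 7.49 on chow (lowest 7.14, highest 7.64) to 8.29 on HFCS (7.87 to 8.40) on the log2 signal scale, a change of 0.80 ± 0.12 (SE), or 1.74-fold. NFE2L2 had the widest step, 0.95 ± 0.21, from a median of 8.80 (7.50 to 9.20) to 9.58 (9.12 to 9.93). The other 5 genes took smaller steps. TTC14 went from a median of 7.40 (7.09 to 7.57) to 7.86 (7.73 to 7.97) and PELI1 from 7.07 (6.78 to 7.29) to 7.56 (7.39 to 7.74). CANX went from 7.64 (7.34 to 7.84) to 8.13 (8.01 to 8.36), MOB1A from 7.50 (7.19 to 7.70) to 7.93 (7.91 to 8.22) and HERC4 from 7.33 (7.14 to 7.49) to 7.76 (7.61 to 7.95). Their changes lay between 0.45 ± 0.09 for HERC4 and 0.51 ± 0.10 for CANX. Chow and HFCS values did not overlap for 6 of the 7 genes, whereas 44 of all 8052 genes, 0.546%, were higher on every HFCS array than on every chow array. NFE2L2 was the exception, since its highest chow value, 9.20 in CON replicate 4, lay above its lowest HFCS value, 9.12 in CON replicate 6.

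These are the values that selected the genes. The lack of overlap, the adjusted p-values and the counts of members in CON muscle describe that choice and are no test of it. Which members lay past the thresholds changed with any 1 animal left out, also with a MUN animal, whose arrays enter the estimate of spread and the normalization. With all arrays, 6 of the 8052 genes, 0.0745%, rose past both thresholds (Benjamini-Hochberg adjusted p below 0.05 and at least 1.2-fold), and they were the members other than NFE2L2. HERC4 was the last gene inside, with an adjusted p of 0.0480 in limma, and TMEM123, RDX and PROSER1, each at 0.0630, were the first outside. NFE2L2 stood at rank 16 with 0.0849. Without the weak array, the same thresholds took in 24 genes that rose, 0.298%, and 18 that fell, and all 7 members were among the 24. Their changes then lay between 0.43 for HERC4 and 0.76 for SDCBP and NFE2L2, and no overlap was again seen for 6 of the 7, beside 0.807% of all genes. Leaving out any 1 of the 12 animals left 0 to 4 members past both thresholds, with 0 without CON replicate 1, 2 or 6, 1 without CON replicate 3, 4 or 5 or MUN replicate 2 or 6, 2 without MUN replicate 1, 3 or 5 and 4 without MUN replicate 4. With the animal as a block no member passed with all arrays (SDCBP, PELI1, TTC14, MOB1A and HERC4 at a limma adjusted p of 0.0665), and 6 members passed without the weak array, at 0.0433 each, with CANX at 0.0958.

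The weak array mattered most for NFE2L2. In animal 28473 NFE2L2 rose by 1.92, from 7.50 to 9.42, while in the other 5 CON animals it rose by 0.42 to 1.18. SDCBP rose by 1.22 in that animal and by 0.35 to 0.88 in the others. TTC14 was the steadiest member, at 0.49 in animal 28473 and 0.40 to 0.64 in the other 5. CON replicate 3 showed the smallest rise of SDCBP, NFE2L2, TTC14 and MOB1A, CON replicate 2 that of CANX and CON replicate 1 that of PELI1. Leaving out both the weak array and the chow array with high ALB gave changes of 0.47 for HERC4 to 0.81 for NFE2L2.

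**Figure D1:**
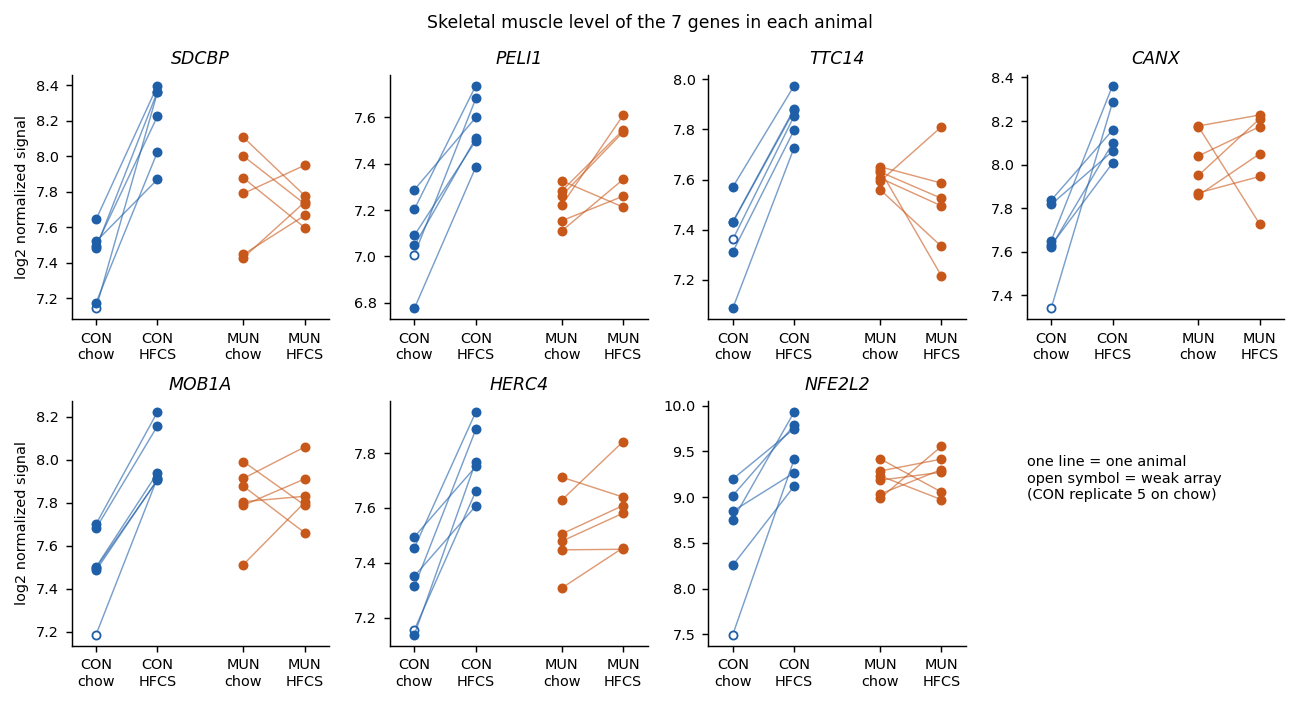
Log2 normalized signal of the 7 genes in skeletal muscle on chow and on HFCS, for 6 CON animals (blue) and 6 MUN animals (orange), with a line per animal and an open symbol for the weak chow array of CON replicate 5. All CON lines go up, while the MUN lines of SDCBP run from 7.43 to 8.11 on chow and from 7.60 to 7.95 on HFCS.

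PELI1 was close to the detection limit in muscle. Its probe was detected on 0 of 6 CON chow arrays, 6 of 6 CON HFCS arrays, 2 of 6 MUN chow arrays and 5 of 6 MUN HFCS arrays, so its CON chow level is only a bound. Its CON HFCS mean was at least 1.23-fold higher than the detection floor of the 5 CON chow arrays other than the weak one, where measured means were 7.06 on chow and 7.55 on HFCS. With the weak array included that floor lay above the HFCS mean and gives no fold. The probes used for SDCBP, TTC14 and HERC4 were each detected on 4 of 6 CON chow arrays, or 4 of 5 outside the weak one. On CON HFCS they were detected on 6 of 6 arrays, so part of the chow values behind their rise lay below detection.

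A second probe of 3 genes allowed a check within CON muscle. The probe used for each gene was the one brighter on average over all muscle arrays. For CANX that probe rose by 0.51, but the second one changed by 0.02 ± 0.10, up in 4 of 6 animals and down in 2, with group means of 7.78 on chow and 7.80 on HFCS. For MOB1A the used probe rose by 0.50, and the second probe was at -0.26 ± 0.14 with all arrays and at -0.11 ± 0.10 without the weak array. For TTC14 the second probe was higher on HFCS in each of the 5 animals outside the weak array, by 0.11 to 0.39, and fell by 2.20 in animal 28473, so that its group mean went from 7.67 to 7.52 with all arrays. Both CANX probes, and both MOB1A probes, were detected on 5 of 6 CON chow arrays and on all 6 CON HFCS arrays, and the second TTC14 probe on 3 and 5. In MUN muscle none of the second probes was called. Over the 23 other muscle arrays the probe pairs correlated at r = 0.64 for TTC14 (rho = 0.58), 0.10 for CANX (rho = -0.02) and -0.05 for MOB1A (rho = -0.08), as a description. For CANX and MOB1A the rise was thus seen with 1 of 2 probes. SDCBP and HERC4 each had 1 kept probe in muscle, since the second SDCBP probe was detected on 4 of 24 arrays and the others of HERC4 on 1 and 3.

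**Figure D2:**
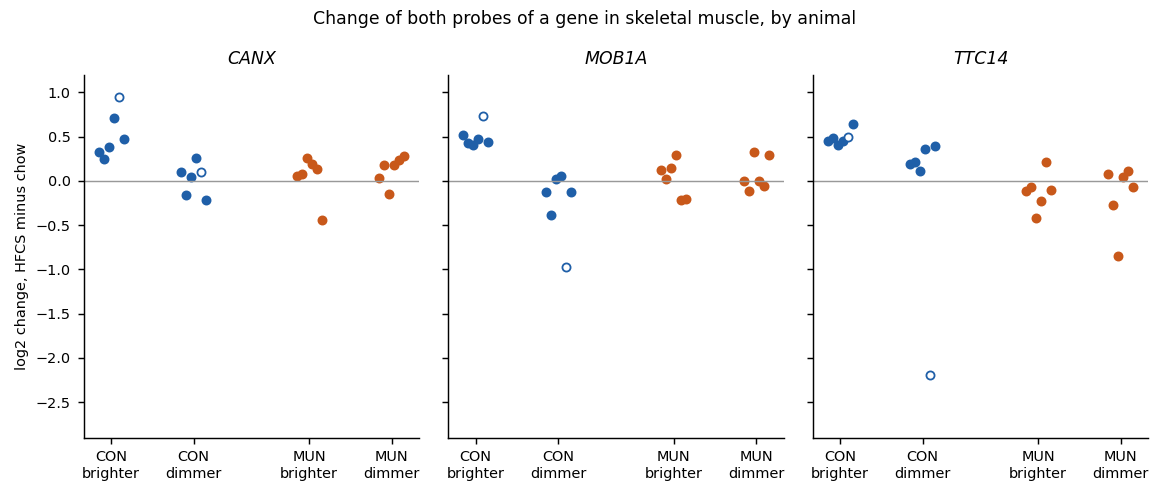
Within-animal log2 change (HFCS minus chow) of the brighter and the dimmer probe of CANX, MOB1A and TTC14 in skeletal muscle, a point per animal, CON in blue, MUN in orange and an open symbol for animal 28473, whose chow array was weak. In CON the brighter probes lie above 0 in every animal, while the dimmer CANX and MOB1A probes scatter around or below 0.

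In MUN muscle none of the 7 genes changed by the test. Of 8052 genes limma called 0 on HFCS against chow (0%), with 1.40% at an unadjusted p under 0.05, and 0 were called without the weak array, with 3.81%. An ordinary F-test also called 0 genes. With the animal as a block and without the weak array limma called 1 gene, SLC25A42, a mitochondrial carrier that is no member and is named here after its value was seen (log2 change 0.69, adjusted p = 0.0411 against 0.853 in the fit with all arrays). The members' median change was 0.04, beside 0.00 for all genes, with 5 of 7 above 0 and 51.0% of all genes above 0. Groups overlapped for all 7 members, and 0.149% of all genes had groups that did not.

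SDCBP, the leading gene in CON, had a median of 7.83 on MUN chow (lowest 7.43, highest 8.11) and 7.74 on HFCS (7.60 to 7.95). Its change was -0.03 ± 0.12 with a 95% interval from -0.29 to 0.23, up in 3 animals and down in 3. NFE2L2 went from a median of 9.21 (8.99 to 9.42) to 9.29 (8.97 to 9.56), a change of 0.07 ± 0.21 with an interval from -0.36 to 0.51. The SE and interval take in the spread of the CON arrays too, and without the weak CON chow array the NFE2L2 change was 0.07 ± 0.15. Without that array the members' changes in MUN muscle lay between -0.12 and 0.19. TTC14 was at 7.62 (7.56 to 7.65) on chow and 7.51 (7.22 to 7.81) on HFCS, lower in 5 of 6 animals, with a change of -0.12 ± 0.09. The 6 chow values of TTC14 lay close together, and its HFCS values spread on both sides of them.

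CANX changed by 0.04 ± 0.10, and was higher in 5 of 6 MUN animals, with a fall of 0.45 in MUN replicate 6. MOB1A changed by 0.03 ± 0.10, up in 4 of 6 animals. HERC4 went from 7.49 (7.31 to 7.71) to 7.59 (7.45 to 7.84), a change of 0.08 ± 0.09, higher in 5 of 6 animals. PELI1 went from a median of 7.24 (7.11 to 7.33) to 7.43 (7.21 to 7.61), a change of 0.19 ± 0.09 with an interval from 0.01 to 0.38, higher in 5 of 6 animals. Its adjusted p in limma was 1.00, like that of each other member.

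The exact sign-flip test over the 6 MUN animals (two-sided, 64 flips, smallest possible p 0.0312) gave an unadjusted p of 0.0938 for PELI1 and for HERC4, and exact p of 0.25 to 0.781 for the other 5. PELI1 was left out of the next comparison, since its CON chow level is only a bound. For the other 6 genes the difference between the MUN and the CON change ranged from -0.37 for HERC4 to -0.88 ± 0.30 for NFE2L2, and was -0.83 ± 0.18 for SDCBP and -0.61 ± 0.12 for TTC14. Without the weak array it lay between -0.34 for HERC4 and -0.80 for SDCBP. For the second probes of CANX and MOB1A it had the other sign, at 0.11 ± 0.14 and 0.33 ± 0.20. With all arrays the mean of the second TTC14 probe fell in both groups, from 7.67 to 7.52 in CON and from 7.40 to 7.24 in MUN. In the 5 CON animals outside the weak array that probe rose. The difference between the MUN and the CON change shares the CON arrays that selected the genes and was not tested.

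With the brighter probe of each gene both MUN means lay between the CON chow and the CON HFCS mean. This did not hold with all arrays for the second probes of CANX and TTC14. For CANX the MUN means were 7.70 on chow and 7.82 on HFCS against CON means of 7.78 and 7.80. For TTC14 they were 7.40 and 7.24 against CON means of 7.67 and 7.52. On chow the brighter probes of the 6 genes other than PELI1 were higher in MUN than in CON muscle, by 0.20 for HERC4 to 0.60 for NFE2L2, and by 0.16 to 0.39 without the weak array. The second probes were lower in MUN, CANX at 7.70 against 7.78, MOB1A at 7.59 against 7.81 and TTC14 at 7.40 against 7.67, although without the weak array that of TTC14 was higher by 0.15. The brighter CANX probe had no overlap, at 7.86 to 8.18 in MUN against 7.34 to 7.84 in CON, while the second one overlapped, at 7.51 to 7.90 against 7.70 to 7.87. Of all genes 0.248% were higher on every MUN than on every CON chow array, and 0.323% without the weak array. On HFCS the brighter probes of all 7 genes were lower in MUN, by 0.11 for CANX to 0.46 for SDCBP, with overlapping groups, whereas the second probes of CANX (7.82 against 7.80) and MOB1A (7.66 against 7.55) were higher in MUN. These values describe the same arrays and add no independent support to the step seen in CON.

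**Figure D3:**
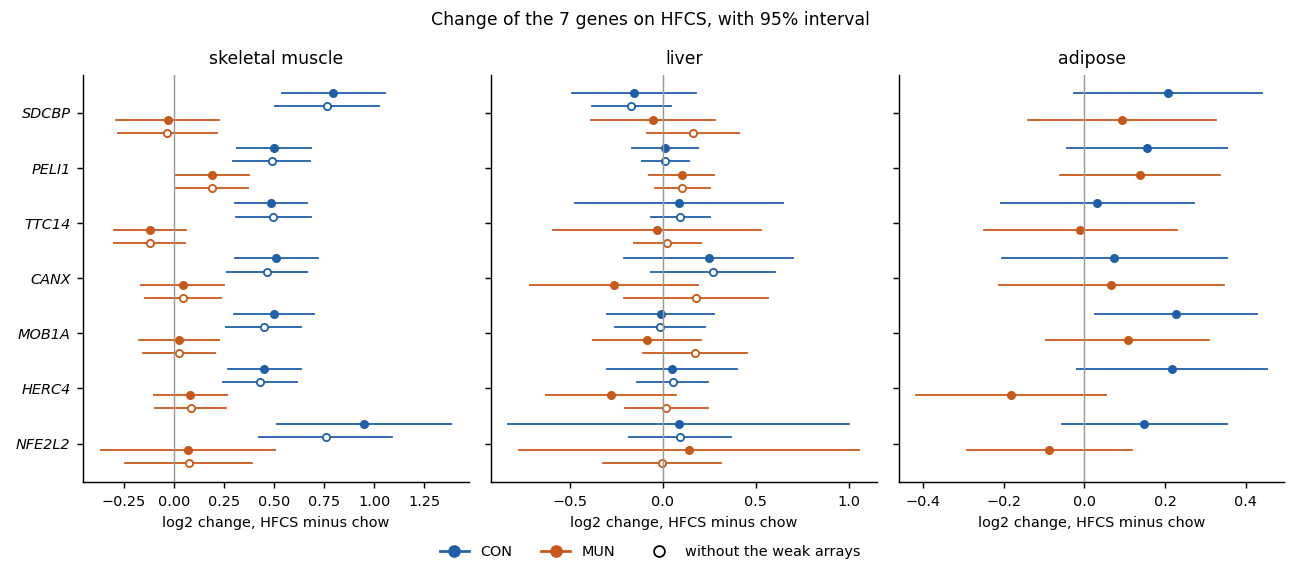
Log2 change on HFCS of the 7 genes in skeletal muscle, liver and adipose tissue, with 95% intervals from limma, in CON (blue) and MUN (orange), filled for all arrays and open without the weak arrays. In muscle the CON estimates lie between 0.43 and 0.95 and the MUN estimates between -0.12 and 0.19, while in liver and adipose tissue the estimates lie between -0.28 and 0.27.

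Markers of other cells were read on the same muscle arrays. The 4 blood markers measured of 4 listed were lower on HFCS in CON muscle, with a median change of -1.32 without the weak array and summed signals of 6327 to 36139 on chow and 2419 to 21936 on HFCS. In MUN muscle 3 of the 4 were higher, with a median change of 0.25 and sums of 1668 to 50208 on chow and 7366 to 35303 on HFCS. All 9 muscle fiber markers were lower on HFCS in CON without the weak array (median -0.12), whereas 7 of 9 were higher with it (median 0.63), and 8 of 9 were lower in MUN (median -0.04). Without the weak array the 6 matrix markers measured were higher on HFCS in both groups, by a median of 0.35 in CON and 0.36 in MUN. The 3 hepatocyte markers measured of 9 listed summed to 27384 on the CON chow array with high ALB and to at most 483 on every array of the other 3 groups. None of these markers was called, and their part in the change of the 7 genes was not tested.

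Partners, targets or family members were listed for the genes other than TTC14, with earlier results of these data known. In MUN muscle none of the genes measured from these lists was called. NRF2 partners and targets numbered 19 measured of 28, 9 higher and 10 lower, with a median change close to 0. The smallest p values belonged to TXNRD1, a thioredoxin reductase (-0.21 ± 0.17), EPHX1, an epoxide hydrolase (0.15 ± 0.17), and CUL3, the cullin that pairs with KEAP1 (0.08 ± 0.10). The calnexin cycle had 6 measured of 13, all higher, with a median of 0.08, among them the glucosidase subunit GANAB (0.08), the cargo receptor LMAN1 (0.08) and UGGT2 (0.13). In CON muscle 1 of these genes was higher and 5 were lower, with a median of -0.08, or -0.06 without the weak array.

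Of the Hippo pathway 10 of 19 were measured, 8 higher and 2 lower with a median of 0.04, the smallest p values being those of AMOTL2 (0.24 ± 0.14), CCN1 (0.83 ± 0.54) and ANKRD1 (0.35 ± 0.61). Toll-like and IL-1 receptor signaling had 15 of 22 measured, 9 higher, with a median of 0.02, led by the kinase MAP3K7 (0.22 ± 0.12), TRAF6 (-0.08 ± 0.08) and TAB1 (0.09 ± 0.10). Syntenin partners and exosome release had 14 of 20 measured, 7 higher, with a median of -0.01, led by HGS (0.20 ± 0.13), the syndecan SDC2 (0.14 ± 0.11) and the tetraspanin CD9 (0.24 ± 0.21). Of the HERC family 3 of 5 were measured, HERC1 at -0.09, HERC2 at -0.08 and HERC3 at 0.04. In CON muscle without the weak array the medians of the 6 lists lay between -0.06 and 0.04, beside -0.01 for all genes, and TRAF6 (0.38) was the 1 gene of the lists past both thresholds there. With the weak array included the medians in CON were 0.18 for NRF2 partners and targets and -0.13 for the Hippo pathway, and none of the list genes passed.

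Across the 23 muscle arrays other than the weak one, the members varied together, with pairwise r from 0.50 to 0.85 (median 0.70 over 21 pairs). Over the 12 MUN arrays pairwise r ran from -0.43 to 0.58 with a median of 0.14. Those arrays do not set the size of the CON change, but they share its normalization and its estimate of spread. The 8 genes whose levels followed the mean of the members most closely over the 23 arrays were ZC3H4 (r = 0.85, rho = 0.88), KATNA1 (0.84, 0.81), EXOC1 (0.83, 0.90), COPB1 (0.83, 0.81), FNDC3A (0.83, 0.84), ITM2B (0.81, 0.80), BCLAF1 (0.80, 0.75) and RPL19P12 (0.79, 0.75), a pseudogene name whose probe can share signal with its parent gene. Over the 12 MUN arrays EXOC1, a subunit of the exocyst (r = 0.92), and FNDC3A (0.87) were the genes closest to the mean of the members, and the other 6 lay between 0.32 and 0.65. The single nearest gene was PROSER1 for SDCBP (r = 0.89, and 0.84 in MUN), RAB22A for TTC14 (0.81, 0.82), KRCC1 for MOB1A (0.85, 0.81), CSRP2 for CANX (0.76, 0.61), RPL19P12 for NFE2L2 (0.84, 0.63), NFE2L2 for PELI1 (0.76, 0.24) and SDCBP for HERC4 (0.85, 0.56). These correlations are descriptions over arrays that share a normalization and, for the 23, the diet step in CON.

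In liver limma called 0 of 8685 genes on HFCS against chow in either group (0%). With all arrays 54 genes in CON and 849 in MUN had an unadjusted p under 0.05. Without the weak arrays, again with 0 genes called, these counts were 292 in CON and 286 in MUN. The members' median change was 0.05 in CON and -0.05 in MUN with all arrays, and 0.05 and 0.11 without the weak ones. CANX was higher in each of the 6 CON animals, by 0.13 to 0.39, with a fitted change of 0.25 ± 0.22 (limma adjusted p = 1.00) and, without the weak arrays, 0.27 ± 0.16. The second CANX probe was higher in 3 of these animals and lower in 3, at 0.02 ± 0.16. SDCBP was lower in 5 of 6 CON animals, at -0.15 ± 0.16. The MUN values depended on the weak arrays. CANX fell by 1.86 and HERC4 fell by 1.78 in MUN replicate 4, both of whose arrays were weak, and NFE2L2 was higher by 1.74 in MUN replicate 6, whose chow array was weak. With all arrays CANX changed by -0.26 ± 0.22 and HERC4 by -0.28 ± 0.17 in MUN liver, and without the weak arrays by 0.18 ± 0.19 and 0.02 ± 0.11.

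Between the groups in liver none of the members was called on either diet, with 0 genes called by limma (0%), 342 on chow and 224 on HFCS at an unadjusted p under 0.05. Without the weak arrays, again with 0 genes called, these counts were 333 on chow and 465 on HFCS. SDCBP on chow lay at 8.41 to 8.87 in CON (median 8.63) and at 8.00 to 9.27 in MUN (median 8.31), a difference of -0.12 ± 0.16. Without the weak arrays, which held the 2 highest MUN values, the groups of 6 CON and 4 MUN arrays, normalized anew, did not overlap (8.61 to 9.11 against 8.16 to 8.53), beside 0.426% of all genes that were lower on every MUN array, and the difference was -0.43 ± 0.11 with a limma adjusted p of 1.00, beside -0.15 ± 0.09 for the second SDCBP probe, which was kept in liver. None of the second probes was called in liver or adipose tissue. The difference between the MUN and the CON change in liver was not called for any member (smallest adjusted p 0.954, and 0.999 without the weak arrays).

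In adipose tissue, where no array was weak, all 7 genes had a CON change above 0 with the brighter probe, from 0.03 for TTC14 to 0.23 for MOB1A, but limma called none of them and 0 of 9277 genes (0%), with 703 at an unadjusted p under 0.05. Of all genes 50.8% had a change above 0. MOB1A was higher on HFCS in 5 of 6 CON animals, with a median of 8.06 (7.81 to 8.15) on chow and 8.27 (7.91 to 8.41) on HFCS, a change of 0.23 ± 0.10 with a limma adjusted p of 0.599. The second MOB1A probe went the other way, from a mean of 7.86 to 7.81, and was lower in 4 of the 6 animals. SDCBP was also higher in 5 of 6 animals, at 9.45 (9.18 to 9.54) on chow and 9.64 (9.51 to 9.77) on HFCS, a change of 0.21 ± 0.11 with an adjusted p of 0.700. In MUN adipose tissue 4 of the 7 were above 0 and 3 below, between -0.18 for HERC4 and 0.14 for PELI1, and 0 genes were called by limma, with 358 at an unadjusted p under 0.05. PELI1 was higher in each of the 6 MUN animals, by 0.02 to 0.43.

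On chow, the 7 genes differed between MUN and CON adipose tissue by -0.09 to 0.01 with the brighter probes, beside -0.20 ± 0.09 for the second SDCBP probe, with 0 genes called by limma (0%) and 326 at an unadjusted p under 0.05. On HFCS the brighter probes of all 7 were lower in MUN, by 0.04 for TTC14 to 0.40 for HERC4, but the second MOB1A probe was higher, at 7.91 against 7.81. Of all genes 50.6% were higher and 2 of 9277, 0.0216%, were called, RPL13AP5 (0.45, adjusted p = 0.0169) and WWP1 (-0.37, adjusted p = 0.0360), which are no members and are named after their values were seen. HERC4 on HFCS lay at 8.52 to 9.12 in CON (median 8.72) and at 8.12 to 8.52 in MUN (median 8.43), so that the lowest CON and the highest MUN value met at the second decimal without overlap, as for 0.366% of all genes that were lower on every MUN array. Its difference was -0.40 ± 0.11 with a limma adjusted p of 0.208. NFE2L2 lay at 10.06 to 10.56 in CON (median 10.36) and at 9.77 to 10.32 in MUN (median 10.11), a difference of -0.26 ± 0.10 with an adjusted p of 0.356. HERC4 had opposite mean changes, up 0.22 in CON and down 0.18 in MUN, and the difference between them, -0.40 ± 0.16, did not pass (limma adjusted p = 1.00).

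**Figure D4:**
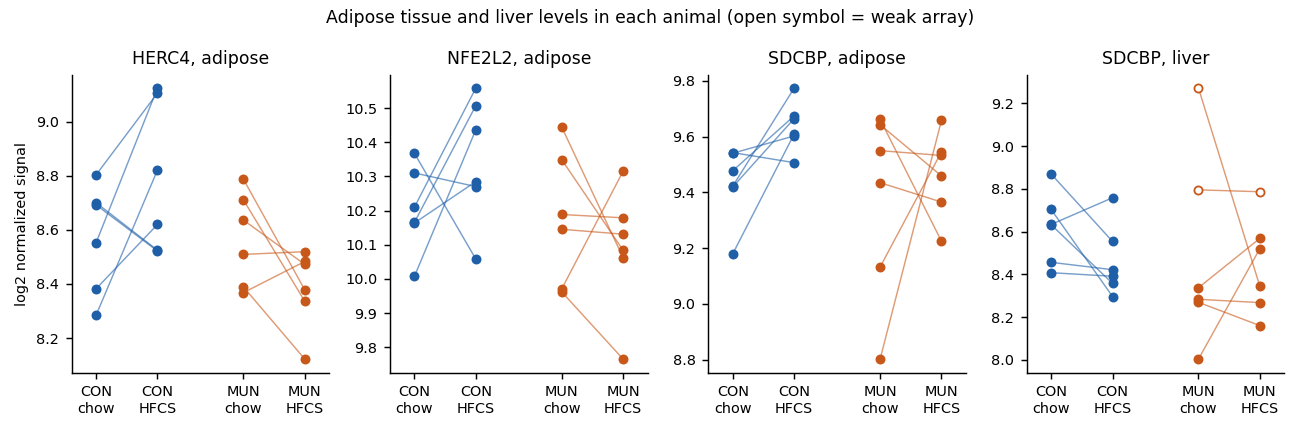
Log2 normalized signal of HERC4, NFE2L2 and SDCBP in adipose tissue and of SDCBP in liver, by animal on chow and HFCS, with a line per animal, CON in blue, MUN in orange and open symbols for weak arrays. On HFCS the HERC4 values of MUN adipose tissue end at 8.52, where those of CON begin.

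Levels of a gene across tissues were read after normalizing all 72 arrays together, with the probe used in muscle and without the weak arrays (23 muscle, 21 liver and 24 adipose arrays). For 6 of the 7 genes muscle was not the highest tissue. SDCBP was at 7.89 ± 0.36 (SD) in muscle, 8.76 ± 0.22 in liver and 9.06 ± 0.21 in adipose tissue, and the ranges of neighbouring tissues overlapped. TTC14 followed the same order, at 7.65 ± 0.26, 8.10 ± 0.12 and 8.46 ± 0.18. CANX (8.09 ± 0.23, 8.21 ± 0.30 and 8.88 ± 0.23) and NFE2L2 (9.30 ± 0.35, 9.36 ± 0.23 and 9.80 ± 0.19) were also highest in adipose tissue, with muscle and liver closer together than 1 SD.

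HERC4 was lowest in muscle at 7.62 ± 0.23, with a highest array of 8.05 that stayed below the lowest liver array of 8.22, followed by adipose tissue at 8.19 ± 0.22 and liver at 8.54 ± 0.15. PELI1 was lowest in liver at 7.14 ± 0.09, where its probe was detected on 11 of 24 arrays, then 7.35 ± 0.27 in muscle and 7.71 ± 0.15 in adipose tissue. MOB1A was the gene with its highest mean in muscle, at 7.91 ± 0.22, against 7.76 ± 0.16 in adipose tissue and 7.60 ± 0.20 in liver, and its 3 ranges overlapped. That order was read with the brighter MOB1A probe only, and the second probe did not follow it in muscle (r = -0.05). The joint normalization also gives the tissues the same distribution of signals.

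**Figure D5:**
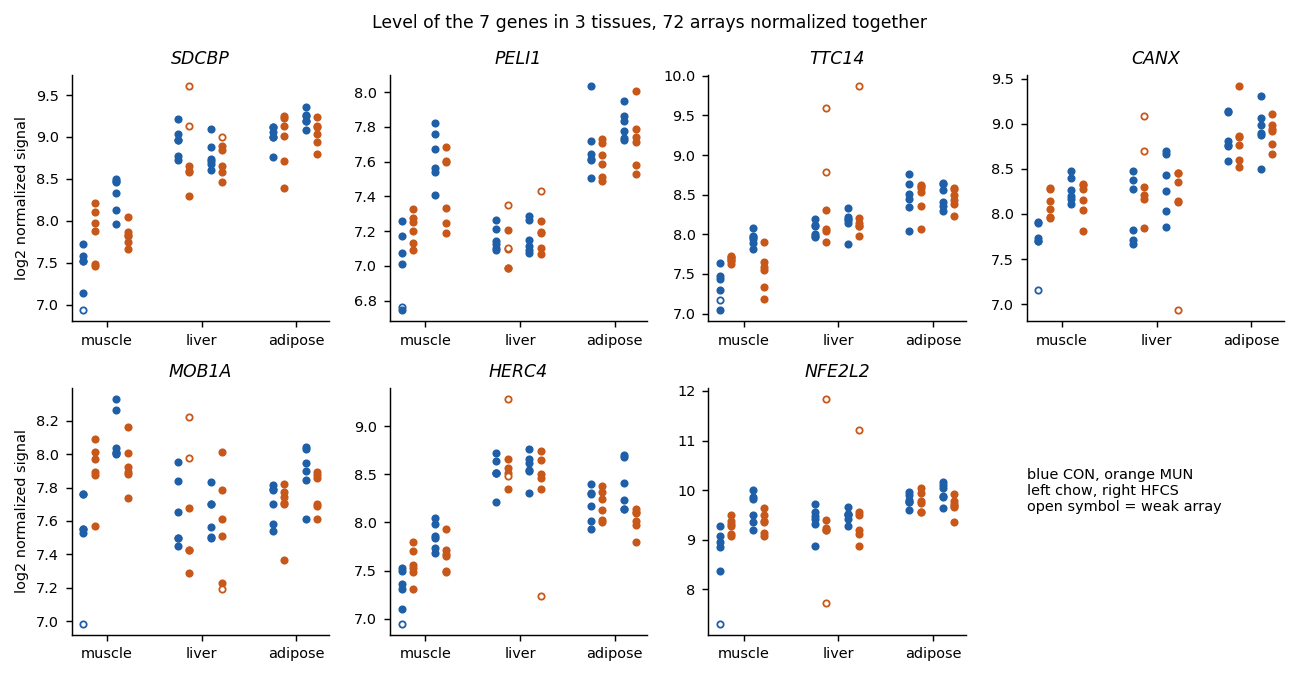
Log2 normalized signal of each of the 7 genes on all 72 arrays normalized together, by tissue, with chow arrays to the left and HFCS arrays to the right, CON in blue, MUN in orange and open symbols for the 4 weak arrays. HERC4 shows muscle arrays up to 8.05 and, outside the weak arrays, liver arrays from 8.22.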

How the data were processed

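RNA from 72 needle biopsies of 12 baboons (24 each of muscle, liver and adipose tissue) was measured on human Illumina BeadChips. The authors deposited a table of probe signals for 47231 probes, exported from GenomeStudio as linear intensity without normalization. Each array's second deposited column is named a p-value but holds a detection score that rises to 1. The authors also deposited a value table, which held quantile-normalized intensity on a linear scale (the spread at a given rank between arrays was at most 0.722%), made with Partek according to the submitters' processing notes. Versions were not given in the sources used here. Probes were named through the platform annotation, which can be old. It gave 23458 probes 1 gene symbol and 7 probes several.

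In each tissue, probes were kept if their detection score exceeded 0.95 on 6 or more of 24 arrays. Their log2 signals, with no background subtracted, were quantile-normalized tissue by tissue, and the probe with the highest mean stood for its gene. A linear model with the 4 groups of a tissue was fitted with limma 3.58.1 in R 4.3.3, with Benjamini-Hochberg adjustment over all genes of the tissue. Called genes had an adjusted p below 0.05 together with a change of 1.2-fold or more. Changes over the 6 MUN animals in muscle were also tested with an exact sign-flip test. The limma p-values and SE measure the spread between arrays within the 4 groups of a tissue, with information shared over genes. They do not pair the chow and HFCS arrays of an animal, except where the animal was a block. The sign-flip p-values measure the spread of the change between the 6 MUN animals.

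The members, gene lists and tests were chosen with earlier results of these data known. The text names all 7 members, the 3 genes with the smallest p of each list and the 8 genes whose levels followed the members most closely. The same animals were biopsied on both diets, as the labels show, with liver numbers carrying an extra leading digit. Deviations of the 2 arrays of an animal correlated at a median of 0.176 in muscle (above 0.1 in 7 of 12 animals), 0.368 in liver (11 of 12) and 0.203 in adipose tissue (9 of 12). On simulated data without weak arrays, 50 of 8052 genes were changed by each of several log2 changes in MUN muscle, and the fit called 32% at 0.3, 68% at 0.5 and 92% at 0.75. Genes of all these sizes were changed in the same simulated data, and many true changes ease the Benjamini-Hochberg threshold. These shares therefore do not give the chance of a call where few genes change or where the weak array is kept.

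Alternatives were leaving out the weak arrays, each animal, or CON replicate 1 on chow, normexp background correction, no detection filter, detection on all 24 arrays, the authors' value table, a joint quantile normalization of the 72 arrays, every kept probe, the animal as a block, array weights, only the 2 groups compared, an ordinary F-test as the study's methods name, no fold threshold and sex as a covariate. No chip or scan batch was given in the sources used here.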

Additional observations from a re-analysis of the deposited data

Results flagged for a closer look

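In 8 of 84 groups of 6 arrays, the highest or lowest array of a member lay far from the other 5, by Dixon's gap test at the 95% level, where chance flags about 1 in 20 groups. Of these, 6 were liver arrays called weak. On the HFCS array of MUN replicate 4, PELI1 was at 7.37 (others 6.82 to 7.03), TTC14 at 9.62 (7.71 to 7.92), CANX at 6.89 (7.85 to 8.15), HERC4 at 7.16 (8.05 to 8.42) and NFE2L2 at 10.9 (8.55 to 9.22), all on the log2 scale. HERC4 was at 8.94 on the chow array of the same animal (others 8.05 to 8.35).

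The other 2 were in adipose tissue, where no array was weak. SDCBP was at 9.18 in CON replicate 1 on chow (others 9.42 to 9.54), and MOB1A was at 7.59 in MUN replicate 4 on chow (others 8.01 to 8.15). The cause was not tested for any of the 8.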

How the results depend on the processing

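Under the 27 settings tried, the members measured kept the sign of their change in CON muscle with the brighter probe of each gene, while the second MOB1A probe changed by -0.26 and the second TTC14 probe by -0.15 with all arrays, and no member was called in MUN muscle, liver or adipose tissue. The count of called genes in CON muscle, 6 with all arrays, was 42 without the weak arrays, 0 to 4 without 1 animal, 0 with detection on all 24 arrays, 3 with every kept probe tested, 11 with array weights and 0 with only the 2 groups compared. Members past both thresholds there, 6 with all arrays, numbered 2 without the weak array and CON replicate 1 on chow, 0 to 4 without 1 animal, 3 without a detection filter, 0 with detection on all 24 arrays, 3 in the authors' value table, 4 with normexp, 4 with all 72 arrays normalized together, 5 with sex as a covariate, 3 with every kept probe, 3 with array weights and 0 with only the 2 groups compared. With the animal as a block, 0 genes and 0 members passed in CON muscle with all arrays, 21 genes passed there without the weak arrays, and in MUN muscle 1 gene did. In liver and adipose tissue no member was called on HFCS against chow with the block, and other genes were not counted there. The comparisons of MUN with CON on 1 diet cannot be made with the block.

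Of 1748 changes of members, 86 crossed 0 within 1 SE of 0 on both sides. Another 21 changed sign with a value farther from 0 than that, and these were all in liver and all involved MUN. Without the weak arrays the change in MUN liver was 0.16 for SDCBP, 0.18 for CANX, 0.17 for MOB1A and 0.019 for HERC4, and MUN minus CON was -0.20 for MOB1A and -0.16 for NFE2L2 on chow and -0.25 for NFE2L2 on HFCS. With array weights the MUN liver changes of SDCBP, CANX, MOB1A and HERC4 were 0.13, 0.15, 0.17 and 0.0050, and MUN minus CON was -0.20 for MOB1A and -0.026 for TTC14 on chow and -0.24 for NFE2L2 on HFCS. With the block and without the weak arrays, SDCBP was at 0.17, CANX at 0.14 and HERC4 at 0.070 in MUN liver. Leaving out 1 animal, MUN liver changes ranged from -0.40 to 0.062 for CANX and from -0.36 to 0.027 for HERC4, and MUN minus CON of NFE2L2 from -0.46 to 0.37 on chow and from -0.25 to 0.24 on HFCS, with the value of the other sign each time without MUN replicate 4. Normexp raised the CON muscle changes of all 7 members, to between 0.95 for CANX and 1.55 for SDCBP, and CANX (limma adjusted p = 0.0659) and MOB1A (0.0618) then missed the threshold. The cause was not tested.

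Human probes on baboon RNA, 6 animals a group, probes near the detection limit such as that of PELI1, and diet following chow in every animal limit these values.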
